A study of Homo sapiens with 6 samples.

Results

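The genes described here are the human WNT ligands and frizzled receptors, the receptors *ROR1* and *ROR2*, the secreted WNT antagonists, the R-spondin receptors with their ligands and ligases, and the feedback and nuclear genes of the same pathway. The rule that chose them used the symbols of protein-coding genes and no measured value, but it was set with earlier results of these data known. The symbols gave 57 members among the 67060 gene identifiers in the count table. RNA was sequenced from SH-SY5Y cells, a human neuroblastoma line that the labels describe as a neuronal progenitor, to see which transcripts differ when the orphan nuclear receptor ERRγ is overexpressed. In the control group, cells were infected with the adenovirus Ad CMV GFP, and in the other group with Ad CMV 3xFlag-*Esrrg*, which carries the mouse *Esrrg* coding sequence with a Flag tag behind the ubiquitous CMV promoter. Each group holds 3 libraries of total RNA collected 24 h after infection, numbered 1, 3 and 4 for GFP and 2, 3 and 4 for ERRg, and all of them received virus and come from 1 cell line. The labels do not say whether the libraries came from separate cultures, so the p-values measure the spread between these libraries.

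WNT proteins are secreted lipid-modified ligands that bind frizzled receptors together with *LRP5* or *LRP6* or with ROR coreceptors. In the canonical branch, binding stops the AXIN, *APC* and GSK3 destruction complex from removing β-catenin, which then acts with TCF/LEF factors in the nucleus, while the noncanonical branches act on cell shape and movement. The pathway controls its own strength through genes that β-catenin induces, among them *AXIN2*, *LGR5*, *DKK1*, *ZNRF3*, *RNF43*, *NOTUM* and *NKD1*, and it takes part in the induction and migration of the neural crest, the lineage from which neuroblastoma arises.

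Between 24969759 and 29700980 reads per GFP library and between 26513620 and 40859666 reads per ERRg library were counted on genes. Reads assigned to no gene made up 51.3% to 52.2% of each GFP library but 46.6%, 31.6% and 29.5% of ERRg replicates 2, 3 and 4, so ERRg replicate 2 stood apart from the other ERRg libraries. Counts on human *ESRRG* were 8.12-fold higher in ERRg, at 83.6, 90.4 and 86.9 counts per 1000000 (CPM) in the GFP libraries and 569.6, 772 and 778 in the ERRg libraries. Reads were aligned to the human genome, whereas the virus carries the mouse coding sequence. These counts therefore cannot tell viral from cellular transcripts, and how well they measure the overexpression was not tested. Of 8 adrenergic neuroblastoma markers, *HAND2*, *GATA3*, *ISL1* and *PHOX2A* were among those detected, *PHOX2A* was called higher (0.81 on the log2 scale), *DBH* was called lower (−2.64), and *TH* and *CHGA* were listed at 0 in every library. Of the 31-base words of the *CHGA* transcripts 90.3% also occur on alternate contigs of GRCh38, where a read has several places to align, so its 0 cannot be read as absence of the transcript. For *TH* that share was 0.0%, but the reason for its 0 was not tested, and it may not reflect expression. The 8 summed to 639 to 695 CPM in GFP and 498 to 657 CPM in ERRg. All 12 mesenchymal-like markers were detected in both groups, with summed levels of 6616 to 6795 CPM in GFP and 6761 to 7128 CPM in ERRg. Of these, 4 were called lower, *PDGFRA* (−1.53 on the log2 scale), *LUM* (−1.15), *DCN* (−0.76) and *YAP1* (−0.67), and 1, *THY1*, higher (0.84). The sums rest largely on *COL3A1* (means of 2602 CPM in GFP and 2536 in ERRg) and *FN1* (1956 and 2691). *FN1* was higher by 0.46, under the fold cutoff (edgeR adjusted p = 0.00792), so near-equal sums do not show that the markers were unchanged. The 6 Schwann cell markers summed to 7.40 to 8.05 CPM in GFP and 5.05 to 6.02 CPM in ERRg, with *CDH19* at or near 0. The part of these marker differences in the WNT results was not tested, and in bulk RNA fewer cells of a type and less RNA per cell cannot be told apart.

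The WNT pathway genes moved in both directions in ERRg. The receptor *FZD8* and the ligand *WNT7B* were 4.03-fold and 3.22-fold higher, whereas *LGR5*, *DKK1* and *WNT2B* were 3.35-fold, 2.58-fold and 2.58-fold lower. A mean of at least 10 counts was reached by 33 of the 57 members, and the same number entered the test. A gene was called at a Benjamini-Hochberg adjusted p below 0.05 in edgeR's quasi-likelihood test over 24500 genes with a fold change of at least 1.5. By that rule 3 members were called higher (*FZD8*, *WNT7B* and *FZD9*) and 9 lower (*LGR5*, *DKK1*, *WNT2B*, *NKD1*, *ROR2*, *SFRP1*, *WNT11*, *DKK2* and *FZD3*). Over all genes tested 17.3% were called higher and 16.8% lower. The split of the member calls depended on the scaling, with 7 higher and 8 lower under relative log expression size factors and 2 and 14 when libraries were scaled by size alone. DESeq2, which differs in scaling, test and filter together, gave 8 and 7. At any fold size, 22 members passed the adjusted p, 9 higher and 13 lower, beside 47.8% of all genes, and in 23 members the groups did not overlap, beside 58.1% of all genes. The median log2 fold change of the tested members was −0.13, against −0.10 over all genes.

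**Figure D1:**
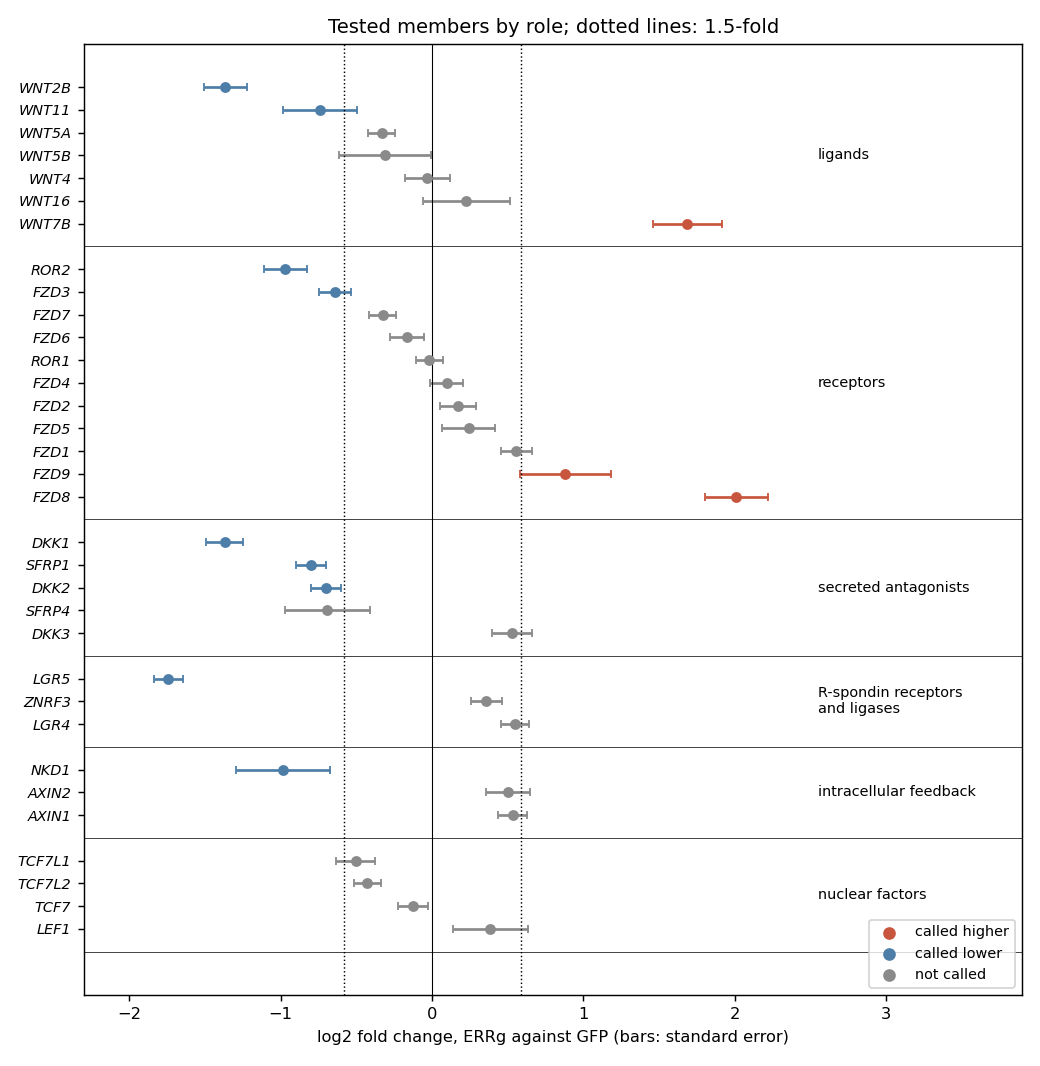
Log2 fold change of ERRg against GFP for the 33 tested members, grouped by role (points), with standard errors (bars). Red and blue points are members called higher and lower, gray points are not called, and dotted lines mark the 1.5-fold cutoff. *FZD8* (2.01) and *LGR5* (−1.74) stand at the ends of the range.

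Below, values are CPM after edgeR's TMM scaling, listed for GFP replicates 1, 3 and 4 and then for ERRg replicates 2, 3 and 4, and gene positions refer to GENCODE release 44 on GRCh38. Log2 fold changes are given with their standard error (SE). Levels per length or per kb were divided by the union of all annotated exons of a gene. That length can exceed the length of the transcripts present. Ranks, shares and ratios between genes therefore depend on the annotation.

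Of the 19 WNT ligands, 7 were tested, with 1 called higher and 2 lower. *WNT7B* (ENSG00000188064, chr22:45920366-45977162, minus strand), a ligand that can act through the canonical branch, had 0.674, 1.16 and 1.12 CPM in GFP and 3.07, 3.27 and 3.26 CPM in ERRg. Its groups were well apart and the ERRg libraries lay close together, at 82, 110 and 111 raw counts against 19, 36 and 37. The log2 fold change was 1.69 ± 0.23 (SE, n = 3 per group, edgeR adjusted p = 0.000251), and 1.14 after a correction for GC content and exon length. *WNT2B* (ENSG00000134245, chr1:112466541-112530165, plus strand), another ligand of the canonical branch, went the other way. It had 21.3, 19.9 and 19.1 CPM in GFP and 9.39, 7.75 and 6.31 CPM in ERRg, so that every ERRg library was below every GFP library. Its log2 fold change was −1.37 ± 0.14 (edgeR adjusted p = 7e-05). The gene *ST7L* on the opposite strand overlaps 21.5% of its exon bases.

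*WNT11*, a mostly noncanonical ligand, was called lower from low counts, 41, 45 and 44 in GFP and 28, 23 and 28 in ERRg. These corresponded to 1.45, 1.46 and 1.33 CPM in GFP and 1.05, 0.683 and 0.822 CPM in ERRg, without overlap. The log2 fold change was −0.74 ± 0.25 (edgeR adjusted p = 0.0288), and the call was lost without GFP replicate 1, 3 or 4 (adjusted p = 0.0858, 0.0864 and 0.0658) and without ERRg replicate 3 or 4 (0.121 and 0.0746). It was also lost in DESeq2 (adjusted p = 0.128) and when each library's percentage of reads on no gene entered the edgeR model (−0.31, adjusted p = 0.691). That percentage was lower in every ERRg library than in every GFP library. Here and below, a fit with it therefore cannot separate it from the treatment.

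The leading ligand by level per length was *WNT5A*, which signals mainly through noncanonical receptors such as *ROR2*. It had 115, 109 and 116 CPM in GFP and 95.3, 85.4 and 89.0 CPM in ERRg. All ERRg libraries were lower, by −0.33 ± 0.09 on the log2 scale (edgeR adjusted p = 0.0114), which is less than the fold cutoff. When levels were expressed as CPM per kb of exon and summed over all 19 ligands, *WNT5A* made up 76.2% ± 1.62 (SD, n = 3) of the total in GFP and 75.9% ± 0.345 in ERRg. The total itself was 20.8 ± 0.383 CPM per kb in GFP and 16.6 ± 0.844 in ERRg, and the groups did not overlap. Within it, the share of *WNT2B* was 7.81% ± 0.377 in GFP and 3.81% ± 0.634 in ERRg, and that of *WNT7B* 0.936% ± 0.269 and 3.81% ± 0.319.

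*WNT4*, with 7.06, 7.76 and 6.83 CPM in GFP and 8.19, 6.001 and 7.04 CPM in ERRg, overlapped between the groups (log2 fold change −0.03 ± 0.15, edgeR adjusted p = 0.877). *WNT5B* and *WNT16*, at means of 33.7 and 16.5 counts, did not pass the test either, although *WNT5B* did after the GC and length correction (−0.82, edgeR adjusted p = 0.0479). The other 12 ligands were not tested. *WNT2*, *WNT7A* and *WNT9B* were listed at 0 in every library. The share of transcript words that also occur on alternate contigs was 98.0% for *WNT9B*, so that its 0 may not reflect expression, 0.2% for *WNT7A* and 0.0% for *WNT2*. The reasons for the 0 of *WNT7A* and of *WNT2* were not tested, and these may not reflect expression either. *WNT1*, *WNT3*, *WNT3A*, *WNT6*, *WNT8A*, *WNT8B*, *WNT9A*, *WNT10A* and *WNT10B* had at most 20 counts in a library, and most transcript words of *WNT3* also occur on alternate contigs. Among these, *WNT6* had 14, 15 and 10 counts in GFP and 0, 1 and 4 in ERRg, and it was called lower when genes with low counts were kept, in DESeq2 and in edgeR, and without GFP replicate 4 or any 1 of the ERRg replicates. *WNT8B* had 3, 7 and 7 counts in GFP and 4, 19 and 17 in ERRg and was called higher only in the fit without ERRg replicate 2. Both were picked out after their values were seen. In the fits with 1 library left out the filter on low counts was applied anew. Both genes entered those fits only through the group where they were high, so these calls only describe their counts.

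**Figure D2:**
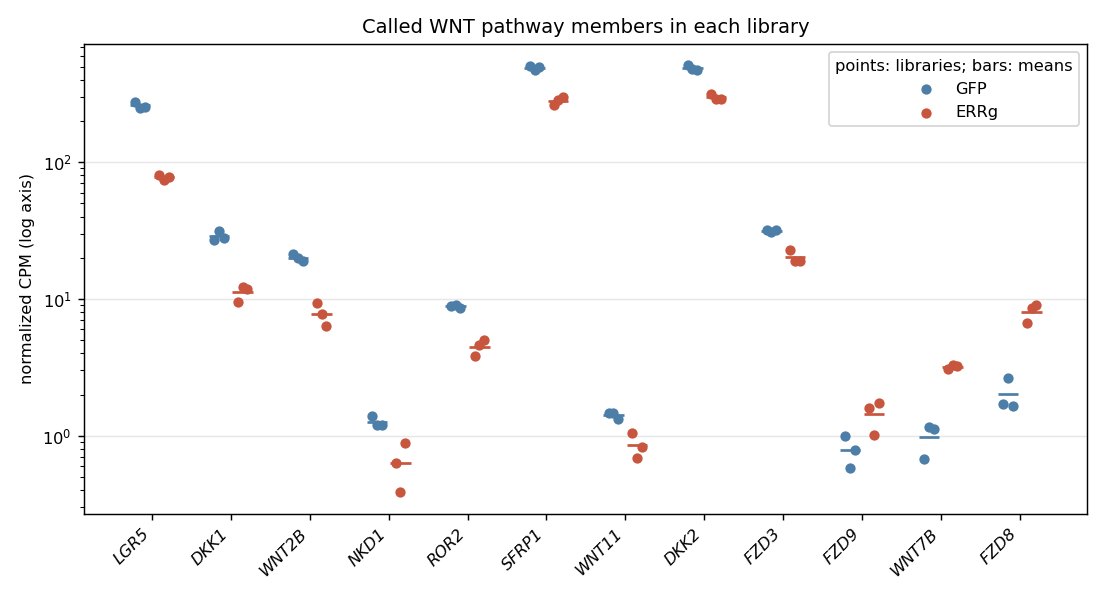
CPM (log axis) of the 12 called members in each of the 3 GFP (blue) and 3 ERRg (red) libraries, with group means as bars, ordered from the lowest to the highest fold change. In each of these genes the groups do not overlap, and levels run from under 1 CPM (*NKD1* in ERRg) to about 511 CPM (*DKK2* in GFP).

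Of the 12 receptors, 11 were tested, with 2 frizzleds called higher and 1 frizzled and *ROR2* called lower. *FZD8* (ENSG00000177283, chr10:35638247-35642296, minus strand) showed the largest rise of the tested members. It had 1.70, 2.65 and 1.66 CPM in GFP and 6.70, 8.56 and 8.98 CPM in ERRg, or 48, 82 and 55 raw counts against 179, 288 and 306. The lowest ERRg library was thus well above the highest GFP library, with a log2 fold change of 2.01 ± 0.21 (edgeR adjusted p = 6.87e-05), and 1.45 after the GC and length correction. *FZD9* was much lower in level, at 28, 18 and 26 counts in GFP and 43, 34 and 59 in ERRg. In CPM it had 0.993, 0.582 and 0.786 in GFP and 1.61, 1.01 and 1.73 in ERRg, so the groups were nearly touching. Its log2 fold change was 0.88 ± 0.30 (edgeR adjusted p = 0.0322), and the call was lost when offsets for GC content and exon length were added (0.34, adjusted p = 0.384), and without GFP replicate 3 (adjusted p = 0.123), GFP replicate 4 (0.0857) or ERRg replicate 4 (0.112). It also missed the adjusted p with the percentage of reads on no gene in the model (0.0987) and with scaling by library size alone (0.172).

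*FZD1* had 21.6, 22.4 and 24.0 CPM in GFP and 30.4, 33.3 and 36.2 CPM in ERRg. It was higher in every ERRg library by 0.56 ± 0.10 on the log2 scale (edgeR adjusted p = 0.00136), just under the fold cutoff, which it passed without GFP replicate 4 (0.60) or ERRg replicate 2 (0.72) and with relative log expression size factors (0.64) or DESeq2 (0.65).

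*FZD3*, a receptor of the planar polarity branch used in axon guidance, was called lower. It had 32.2, 30.8 and 31.8 CPM in GFP and 22.8, 19.1 and 18.8 CPM in ERRg, which did not overlap. The log2 fold change of −0.64 ± 0.10 (edgeR adjusted p = 0.000666) lay close to the fold cutoff and was under it after the GC and length correction (−0.31), with the percentage of reads on no gene in the model (−0.38), in DESeq2 (−0.55) and without ERRg replicate 4 (−0.58). *FZD7*, the frizzled with the highest level per length, had 101, 94.7 and 97.0 CPM in GFP and 75.5, 74.8 and 83.0 CPM in ERRg. It was lower in every ERRg library, but by less than the fold cutoff (−0.33 ± 0.09, edgeR adjusted p = 0.0124). The corrected value of *FZD7* was −0.76 (adjusted p = 0.000116), which is past the cutoff. *FZD7* missed the adjusted p in DESeq2 (−0.23, adjusted p = 0.108) and in edgeR with relative log expression size factors (−0.25, adjusted p = 0.0681). In edgeR it also missed it without GFP replicate 1 (0.0662), GFP replicate 4 (0.0585) or ERRg replicate 3 (0.0707).

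The other frizzleds did not pass the test. *FZD2* had 31.4, 36.3 and 35.5 CPM in GFP and 33.0, 40.0 and 43.1 CPM in ERRg. *FZD6* had 31.9, 29.2 and 29.2 CPM in GFP and 30.3, 27.3 and 22.9 CPM in ERRg. *FZD4* had 19.01, 16.1 and 16.0 CPM in GFP and 19.04, 18.2 and 17.5 CPM in ERRg, with *PRSS23* covering 18.9% of its exon bases on the opposite strand. In all 3 genes the groups overlapped, and the sign of the difference turned in at least 1 alternative. *FZD5*, with 2.94, 2.46 and 2.54 CPM in GFP and 3.22, 2.88 and 3.29 CPM in ERRg, also overlapped. *FZD10* had 1 count in 1 ERRg library and 0 elsewhere.

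Summed over the frizzleds, the level per kb was 46.9 ± 0.566 in GFP and 45.6 ± 1.78 in ERRg, and the groups overlapped. The makeup of that sum differed. *FZD7* held 45.4% ± 0.941 of it in GFP and 37.2% ± 1.01 in ERRg, *FZD8* 1.06% ± 0.306 and 4.36% ± 0.528, and *FZD1* 7.02% ± 0.430 and 10.6% ± 0.532, none of them overlapping between groups.

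*ROR2* (ENSG00000169071, chr9:91563091-91950228, minus strand), the receptor tyrosine kinase that binds *WNT5A*, had 8.87, 8.99 and 8.61 CPM in GFP and 3.82, 4.61 and 5.05 CPM in ERRg. It fell in every ERRg library, with a log2 fold change of −0.97 ± 0.14 (edgeR adjusted p = 0.000381). Its paralog *ROR1* had 55.9, 50.5 and 56.0 CPM in GFP and 53.9, 54.1 and 52.4 CPM in ERRg. The ERRg libraries lay within the range of the GFP libraries, and the log2 fold change was −0.02 ± 0.09 (edgeR adjusted p = 0.882). The ratio of *ROR1* to *ROR2* per kb was 5.38 ± 0.410 in GFP and 10.6 ± 1.67 in ERRg.

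Of the 9 secreted antagonists, 5 were tested, and 3 of them were called lower. These included the most abundant members by level per length, *DKK2* (112 ± 5.06 CPM per kb in GFP) and *SFRP1* (104 ± 3.95). *DKK1* (ENSG00000107984, chr10:52314281-52318042, plus strand), which binds *LRP5* and *LRP6* and blocks the canonical branch, is also a target of that branch. Its promoter window in RefSeq (250 bases before to 50 after the start, GRCh38.p14) was searched on both strands for the TCF/LEF element, taken as CTTTG followed by AA, AT, TA or TT. It holds 2 of them on the plus strand, 95 and 76 bases upstream of the start, shown in capitals in the stretch chr10:52314156-52314241 of the plus strand because the gene had the largest fall among the antagonists.
*DKK1*: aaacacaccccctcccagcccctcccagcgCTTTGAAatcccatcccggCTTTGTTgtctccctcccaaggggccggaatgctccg
Of all 35116 windows of that length 13.8% hold such an element, so its presence here is a description of the sequence.

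*DKK1* had 27.2, 31.5 and 28.0 CPM in GFP and 9.46, 12.3 and 11.7 CPM in ERRg. The highest ERRg library was well below the lowest GFP library, and the log2 fold change was −1.37 ± 0.12 (edgeR adjusted p = 3.05e-05). *SFRP1*, which binds WNT proteins outside the cell, had 503, 469 and 499.9 CPM in GFP and 262, 284 and 299 CPM in ERRg. It fell in every ERRg library (−0.80 ± 0.10, edgeR adjusted p = 0.000176). *DKK2* (ENSG00000155011, chr4:106921802-107283806, minus strand), an *LRP6* ligand that can inhibit or activate by context, had 511, 480.3 and 468.5 CPM in GFP and 314, 292 and 291 CPM in ERRg. The groups were again apart, with a log2 fold change of −0.70 ± 0.10 (edgeR adjusted p = 0.000301).

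*DKK3*, a divergent member of the family whose action on WNT signaling is less clear, differed in direction from *DKK1* and *DKK2*. It had 130.1, 145 and 137 CPM in GFP and 159, 204 and 231 CPM in ERRg. The difference of 0.53 ± 0.13 on the log2 scale (edgeR adjusted p = 0.0078) was under the fold cutoff, rose to 0.77 without ERRg replicate 2, which passes it, and was 0.05 (adjusted p = 0.8) with the percentage of reads on no gene in the model. *USP47* on the opposite strand overlaps 47.5% of the exon bases of *DKK3*. *SFRP4*, at a mean of 38.3 counts, did not pass (−0.69 ± 0.28, edgeR adjusted p = 0.0629), though it did without ERRg replicate 2 (−0.79, adjusted p = 0.0174). *DKK4*, *SFRP2*, *SFRP5* and *NOTUM* were not tested, with at most 19 counts in a library.

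Summed over the secreted antagonists, the level was 241 ± 6.35 CPM per kb in GFP and 151 ± 4.83 in ERRg, without overlap. *DKK2* and *SFRP1* made up most of it in both groups, with *DKK2* at 46.5% ± 1.05 and 45.9% ± 3.31. The share of *DKK1* was 5.40% ± 0.537 in GFP and 3.33% ± 0.380 in ERRg, whereas that of *DKK3* was 4.76% ± 0.367 and 11.0% ± 1.69. The ratio of *DKK2* to *DKK3* was 9.80 ± 0.905 in GFP and 4.29 ± 1.03 in ERRg, and that of *DKK1* to *DKK3* 1.13 ± 0.0367 and 0.306 ± 0.0281.

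**Figure D3:**
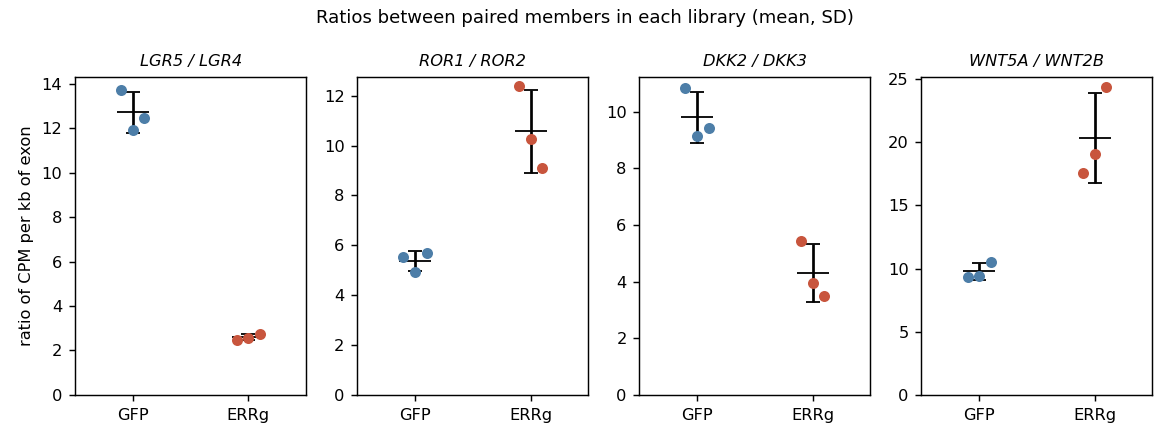
Ratios of levels per kb of exon between members in each library (points), with mean and SD (black), for *LGR5* to *LGR4*, *ROR1* to *ROR2*, *DKK2* to *DKK3* and *WNT5A* to *WNT2B*. The mean *LGR5* to *LGR4* ratio is 12.7 in GFP and 2.60 in ERRg, the *DKK2* to *DKK3* ratio also lies lower in ERRg, and the ratios of *ROR1* to *ROR2* and *WNT5A* to *WNT2B* lie higher, without overlap in any of them.

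Among the 9 genes of the R-spondin module, 3 were tested, and the receptor *LGR5* gave the largest fall of the tested members. *LGR5* (ENSG00000139292, chr12:71439798-71586310, plus strand), a stem cell marker and WNT target that binds R-spondins and so protects frizzleds from removal, had 276, 251 and 254 CPM in GFP and 80.5, 74.1 and 78.6 CPM in ERRg. Libraries of each group lay close together and far from the other group, at 7769, 7759 and 8405 raw counts against 2152, 2495 and 2678. The log2 fold change was −1.74 ± 0.10 (edgeR adjusted p = 1.76e-06). Its paralog *LGR4*, which binds the same ligands, had 24.4, 25.6 and 24.8 CPM in GFP and 39.4, 35.1 and 34.8 CPM in ERRg. It was higher in every ERRg library, by 0.55 ± 0.09 (edgeR adjusted p = 0.000932), and lay on either side of the fold cutoff by setting (0.67 after the GC and length correction, 0.64 in DESeq2, 0.59 without ERRg replicate 2 or without ERRg replicate 4). Per kb, *LGR5* exceeded *LGR4* by 12.7 ± 0.927 times in GFP and 2.60 ± 0.135 times in ERRg.

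*ZNRF3*, the membrane ligase that removes frizzleds, had 23.8, 23.5 and 22.5 CPM in GFP and 27.6, 28.6 and 33.2 CPM in ERRg. The small difference (0.36 ± 0.10, edgeR adjusted p = 0.0149) was −0.06 (adjusted p = 0.559) after the GC and length correction. The related ligase *RNF43*, with 3 to 14 counts in a library, *LGR6* and the 4 R-spondins *RSPO1* to *RSPO4* were not tested, and none of the R-spondins had more than 9 counts in a library.

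Of the 4 intracellular feedback genes, 3 were tested and 1 was called lower. *NKD1*, which binds dishevelled and is induced by the canonical branch, had 1.38, 1.20 and 1.21 CPM in GFP and 0.636, 0.386 and 0.881 CPM in ERRg. These rest on 39, 37 and 40 counts against 17, 13 and 30, with ERRg replicate 4 the nearest to the GFP libraries. The log2 fold change was −0.99 ± 0.31 (edgeR adjusted p = 0.0225). It missed the adjusted p with the percentage of reads on no gene in the model (0.178), in DESeq2 (0.0658), and without GFP replicate 1 (0.078), GFP replicate 3 (0.0524), GFP replicate 4 (0.0554) or ERRg replicate 3 (0.0918).

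*AXIN2*, a scaffold of the destruction complex widely used as a readout of the canonical branch, had 7.80, 6.98 and 5.92 CPM in GFP and 8.49, 10.6 and 10.2 CPM in ERRg. It was higher in every ERRg library by 0.50 ± 0.15 (edgeR adjusted p = 0.0164), under the fold cutoff, and was 0.70 without ERRg replicate 2, 0.60 without GFP replicate 1 and 0.10 (adjusted p = 0.547) after the GC and length correction. Another annotated gene on the same strand overlaps 25.3% of its exon bases. *AXIN1*, the constitutive scaffold, had 24.1, 26.2 and 23.9 CPM in GFP and 33.6, 34.8 and 38.7 CPM in ERRg. Its difference of 0.53 ± 0.10 (edgeR adjusted p = 0.00135) was 0.68 without ERRg replicate 2 and 0.03 (adjusted p = 0.826) after the same correction. *NKD2* was listed at 0 in every library, but 88.9% of its transcript words also occur on alternate contigs, so its 0 may not reflect expression.

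All 4 nuclear factors were tested and none was called. *TCF7L2*, the TCF/LEF factor with the highest level per length, had 107, 106 and 107 CPM in GFP and 74.7, 77.2 and 85.2 CPM in ERRg. *TCF7L1*, mostly a repressor, had 18.3, 19.3 and 19.3 CPM in GFP and 12.1, 11.9 and 16.1 CPM in ERRg. Both were lower in every ERRg library, by −0.43 ± 0.09 (edgeR adjusted p = 0.00311) and −0.50 ± 0.13 (0.00862), under the fold cutoff. *TCF7L1* passed the cutoff without ERRg replicate 4 (−0.65) and after the GC and length correction (−0.98). *TCF7* had 22.8, 23.6 and 23.7 CPM in GFP and 23.2, 21.5 and 19.7 CPM in ERRg, which overlapped, and *LEF1*, at a mean of 38 counts, did not pass either (edgeR adjusted p = 0.315 and 0.222).

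The RefSeq promoter windows of these factors are shown because they hold elements for TCF/LEF or for estrogen-related receptors, whose extended site was searched as TNAAGGTCA and whose core as AAGGTCA, on both strands. Promoter windows were found for 39 of the 57 members, 48 windows in all. The extended site was in 1 of these windows, that of *TCF7*, against 0.951% of all windows. The core, which the extended site contains, was in 2 member windows (*TCF7* and *WNT16*) against 3.92% of all windows, and a TCF/LEF element in 4 (*DKK1*, *TCF7*, *TCF7L2* and *WNT3*). In the stretches below, printed along the plus strand with the match in capitals, the first 2 matches lie on the minus strand and the third on the plus strand, 37, 50 and 133 bases upstream of the starts. Their positions are chr5:134115546-134115612, chr5:134123538-134123604 and chr10:113126470-113126536. In GENCODE *TCF7* begins at chr5:134114681 and *TCF7L2* at chr10:112950247, both on the plus strand. The stretches thus lie inside the genes, and the starts used are not the outermost ones.
*TCF7* receptor site: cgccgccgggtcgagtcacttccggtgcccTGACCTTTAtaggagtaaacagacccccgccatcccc
*TCF7* TCF/LEF element: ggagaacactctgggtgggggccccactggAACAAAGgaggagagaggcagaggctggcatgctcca
*TCF7L2* TCF/LEF element: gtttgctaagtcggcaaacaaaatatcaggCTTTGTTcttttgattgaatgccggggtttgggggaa
*TCF7*, the member with the extended receptor site, did not pass the test, and after the GC and length correction it was lower by −0.47 on the log2 scale (edgeR adjusted p = 0.0125), under the fold cutoff.

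Ordered by level per kb of exon in GFP, *DKK2* and *SFRP1* led, followed by *LGR5* (49.8 ± 2.58 CPM per kb), *FZD7* (21.3 ± 0.699), *WNT5A* (15.8 ± 0.548), *TCF7L2* (15.8 ± 0.0964), *DKK1* (13.01 ± 1.03) and *DKK3* (11.5 ± 0.611). The levels of *WNT5A* and *TCF7L2* differed by less than the SD of *WNT5A*. In ERRg the order was *DKK2* (69.0 ± 2.90), *SFRP1* (59.6 ± 3.95), *FZD7* (17.0 ± 0.993), *DKK3* (16.6 ± 3.05), *LGR5* (14.9 ± 0.627) and *WNT5A* (12.6 ± 0.698), and the levels of *FZD7*, *DKK3* and *LGR5* lay within the spread of *DKK3*. *DKK1* moved from rank 7 to rank 12 and *FZD8* from rank 25 to rank 19. The order depends on the exon lengths, 11958 bases for *DKK3* and 2221 for *DKK1*. In CPM not divided by length, *DKK3* was above *DKK1* in GFP, at means of 137 and 28.9.

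Across the 16 alternative fits that kept the 1.5-fold cutoff, 8 members stayed called in the same direction, *FZD8* and *WNT7B* higher and *LGR5*, *DKK1*, *WNT2B*, *ROR2*, *SFRP1* and *DKK2* lower. Of these, *FZD8*, *WNT7B*, *LGR5*, *DKK1* and *WNT2B* also passed a 2-fold cutoff. The matching shares over all genes were not determined, so these counts cannot show anything particular to the members. *FZD3* and *NKD1* were called in 10 of the 16 fits, and *FZD9* and *WNT11* in 9.

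**Figure D4:**
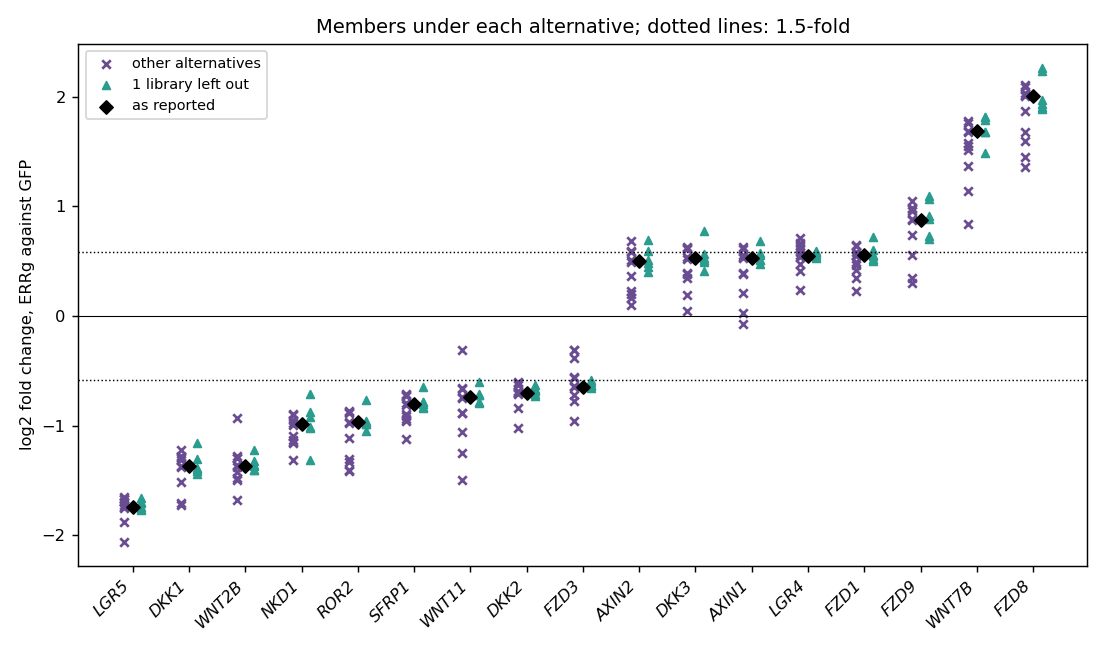
Log2 fold change of 17 members as reported (black diamonds), under the fits that changed scaling, filter, model or correction (purple crosses) and with 1 library left out (green triangles). *LGR5*, *DKK1*, *WNT2B*, *WNT7B* and *FZD8* stay clear of the dotted 1.5-fold lines, while *AXIN1* ranges from −0.08 to 0.68.

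Of 58 other pathway genes, 50 were tested, with 12 called higher and 4 lower and a median log2 fold change of 0.22. Over all genes tested 17.3% were called higher and 16.8% lower, with a median of −0.10. At any fold size 19 were higher and 9 lower, beside 47.8% of all genes in either direction. In 36 of them the groups did not overlap, beside 58.1% of all genes. Under relative log expression size factors the calls were 13 and 1, and with scaling by library size alone 6 and 10. The 4 called lower were *PRICKLE2*, *CELSR2*, *CCND1* and *PYGO1*, the last of which was named after its value was seen.

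Both genes for ligand secretion rose. *WLS*, the carrier that brings WNT proteins to the cell surface, had 205, 209.5 and 221 CPM in GFP and 459.8, 513 and 548 CPM in ERRg, and *PORCN*, the acyltransferase that attaches their lipid, had 3.02, 3.20 and 3.29 CPM in GFP and 6.62, 7.64 and 8.63 CPM in ERRg. In both the ERRg libraries lay well above the GFP libraries, with log2 fold changes of 1.26 ± 0.11 (edgeR adjusted p = 2.24e-05) and 1.27 ± 0.15 (0.000139). Among 4 coreceptors, *LRP5* was called higher (0.72 ± 0.10, edgeR adjusted p = 0.000266), but not after the GC and length correction (0.20, adjusted p = 0.0574). *LRP6* was listed at 0 in every library. Of its transcript words 0.2% also occur on alternate contigs. The reason for this 0 was not tested, and it may not reflect expression.

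*CTNNB1*, the gene of β-catenin, had 409, 390.5 and 422 CPM in GFP and 458, 619 and 645.5 CPM in ERRg. It was higher in every ERRg library by 0.50 ± 0.14 (edgeR adjusted p = 0.0121), was not called, and ranged from 0.02 (adjusted p = 0.911) with that percentage in the model to 0.74 without ERRg replicate 2, where it passed the cutoff. *DVL1*, a dishevelled scaffold, was the only 1 of 5 cytoplasmic signaling genes called (0.84 ± 0.14). In the destruction complex, 2 of 10 genes were called higher, the kinases *GSK3A* (0.95 ± 0.13) and *CSNK1D* (0.71 ± 0.12). Of 12 nuclear cofactors 3 were called higher, among them *CTNNBIP1* (0.89 ± 0.15), which binds β-catenin and blocks its contact with TCF factors, and *PYGO2* (0.85 ± 0.12), and 1 lower. *DVL1*, *GSK3A*, *CSNK1D*, *CTNNBIP1* and *PYGO2* kept their sign but fell under the fold cutoff after the GC and length correction, at 0.27, 0.48, 0.32, 0.42 and 0.36. With the percentage of reads on no gene in the model they were also under it, at 0.32, 0.48, 0.38, 0.31 and 0.46. There *DVL1* and *CTNNBIP1* missed the adjusted p as well (edgeR adjusted p = 0.0544 and 0.0664).

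Among 10 other antagonists, 6 were tested and only *TRABD2B* was called. *TRABD2B*, a membrane protease that cleaves WNT proteins, had 0.780, 0.808 and 0.423 CPM in GFP and 3.37, 3.45 and 3.404 CPM in ERRg, a log2 fold change of 2.35 ± 0.25 (edgeR adjusted p = 7.04e-05). Of 8 planar polarity genes, 2 were called lower, *PRICKLE2* (−0.91 ± 0.18) and *CELSR2* (−0.62 ± 0.12). *PRICKLE2* lost the call with the percentage of reads on no gene in the model (−0.61, edgeR adjusted p = 0.0774), and *CELSR2* fell under the fold cutoff in DESeq2 (−0.53) and without ERRg replicate 2 (−0.48) or 3 (−0.54).

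Of 7 genes widely used as targets of the canonical branch, 4 were tested. *MYC* had 9.51, 11.6 and 11.0 CPM in GFP and 18.4, 28.6 and 28.5 CPM in ERRg (1.23 ± 0.17, edgeR adjusted p = 0.000267). *TNFRSF19* had 10.4, 10.6 and 11.2 CPM in GFP and 21.8, 19.7 and 19.5 CPM in ERRg (0.92 ± 0.10, edgeR adjusted p = 9.58e-05). *CCND1*, the gene of cyclin D1, had 152, 162 and 163 CPM in GFP and 87.8, 107 and 113 CPM in ERRg (−0.63 ± 0.11, edgeR adjusted p = 0.000966). So *MYC* and *TNFRSF19* were higher and *CCND1* lower, each without overlap, and *CCND1* fell under the fold cutoff without ERRg replicate 2 (−0.43) and in DESeq2 (−0.54). *MYC* was 0.57 with the percentage of reads on no gene in the model, also under the cutoff.

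**Figure D5:**
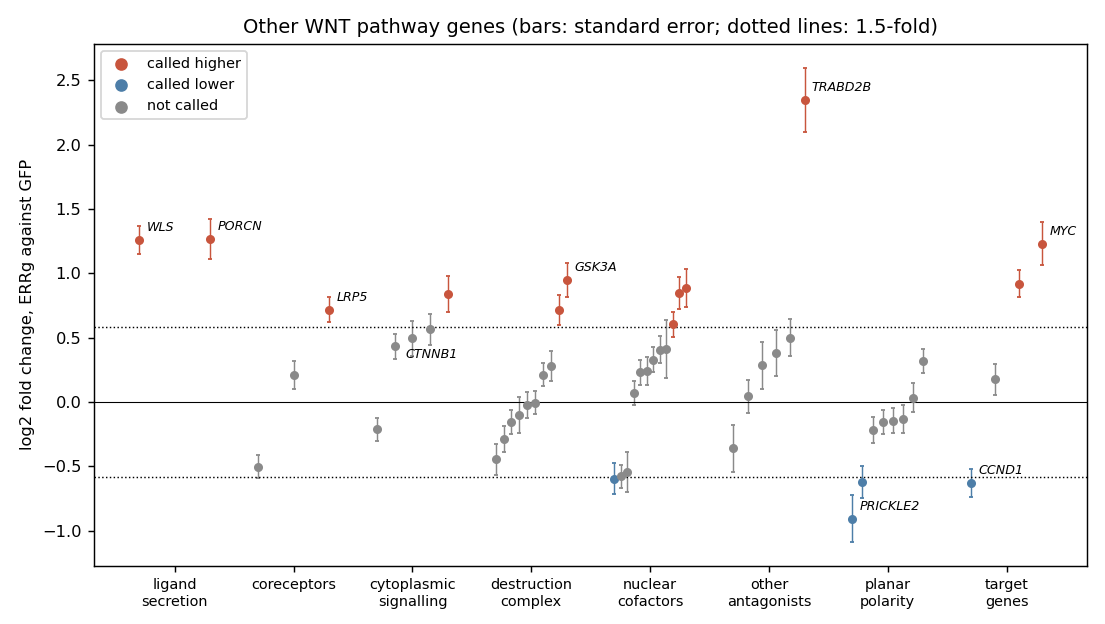
Log2 fold change of ERRg against GFP for the 50 tested genes of the pathway that are no members, by function (points), with standard errors (bars), colored by call, and with dotted lines at 1.5-fold. *WLS*, *PORCN*, *TRABD2B* and *MYC* lie above 1, and *PRICKLE2* (−0.91) is the lowest.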

How the data were processed

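RNA sequencing of 6 SH-SY5Y libraries was analysed. Per the labels, total RNA was depleted of ribosomal RNA and libraries were directional. The submitters' processing notes name GRCh38, CASAVA, Trim Galore 0.6.7, STAR 2.7.9a, HTSeq 0.11.3 and DESeq2. The annotation release and strand setting are not given in the sources used here. The deposited values are raw counts per gene made by the authors. HTSeq's summary entries, 52.3% to 64.0% of reads per library, were left out of library sizes and tests. Identifiers were matched to GENCODE 44 (60419 of 67060, 90.1%).

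Counts were analysed with edgeR 4.0.16 in R 4.3.3 (filterByExpr, TMM, quasi-likelihood test over 24500 genes, Benjamini-Hochberg adjustment, call at adjusted p below 0.05 and at least 1.5-fold). SE was taken as the size of the log2 fold change divided by the root of edgeR's F statistic. An exact permutation test of 3 against 3 cannot go below 0.1, so ratios have no p. The 18 alternatives included DESeq2 1.42.0, other scalings and filters, fold cutoffs, GC and length offsets (mgcv 1.9.3), each library's percentage of reads on no gene as a covariate, a replicate block and each library left out. That percentage did not overlap between the groups, so the fit with this covariate can take up part of the treatment difference. Fits were tested on simulated data. Python 3.11.15, pandas 2.3.3 and matplotlib 3.10.9 were used.

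Values in every library were given for called members and for those averaging 50 counts or more, and, of other pathway genes, the 2 called genes of each group with the largest change at that mean were named, plus *CTNNB1*, *LRP5*, *LRP6*, *WLS*, *PORCN*, *MYC* and *CCND1*. Members and lists were chosen with earlier results of these data known. Some marker genes are not reported here by name.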

Additional observations from a re-analysis of the deposited data

Results flagged for a closer look

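Reads that HTSeq called ambiguous between genes, and which entered none of the comparisons, made up 9.84% of the reads in the ERRg library with the highest share (replicate 3), 9.79% in ERRg replicate 4 and 5.69% in ERRg replicate 2. In the GFP libraries they made up 4.55% to 4.87%. Their part in the differences between the groups was not tested.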

How the results depend on the processing

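Counts of calls depended on the cutoff, the scaling and the correction, and the causes were not tested unless the setting itself gives them. The 3 members called higher became 9 with no fold cutoff, 8 in DESeq2, 7 with relative log expression size factors and 2 to 9 with 1 library left out, and the 9 called lower became 3 with a 2-fold cutoff and 14 with scaling by library size alone. Without ERRg replicate 2, 9 members were called higher (*AXIN1*, *AXIN2*, *DKK3*, *FZD1*, *LGR4* and *WNT8B* in addition) and 11 lower. Among them, *WNT8B* and *WNT6* entered this fit only through the group where they were high. Scaling by library size moved the median of all genes from −0.10 to −0.42 and that of the members from −0.13 to −0.44. The members' median was −0.31 with no filter on low counts, which tests 53 members, −0.26 with protein-coding genes alone, −0.26 with GC and length offsets and 0.011 with the covariate.

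Of other pathway genes, the 12 called higher became 19 with no fold cutoff, 4 with a 2-fold cutoff, 6 with library size alone, 5 with GC and length offsets and 4 with the covariate. The 4 called lower became 9 and 0 with those cutoffs, 1 in DESeq2, 1 with relative log expression size factors, 10 with library size alone, 7 with protein-coding genes alone and 2 to 6 with 1 library left out (2 without ERRg replicate 2).

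The deviations of same-numbered libraries from their group means correlated at 0.075 for number 3 and −0.0001 for number 4. Differently numbered pairs ranged from −0.131 to 0.139. With so few libraries these values cannot show whether the numbers pair the samples. With the replicate block, 5 members were called higher and 9 lower, and with the block plus GC and length offsets the members' median was −0.31 and other pathway genes gave 7 higher and 7 lower calls. That last fit gave the lowest values of *WNT7B* (0.84) and *FZD8* (1.36), both still called, and called *WNT4* (−0.75) and *TCF7* (−0.66) lower.

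Of the 33 tested members, 23 kept their sign in every alternative, and the matching share over all genes was not determined. With library size alone the sign turned for *WNT16* (−0.10), *FZD4* (−0.22), *FZD2* (−0.16) and *FZD5* (−0.079), and with protein-coding genes alone for *FZD4* (−0.039). GC and length offsets turned *FZD2* (−0.26), *FZD6* (0.019) and *ZNRF3* (−0.063), and with the replicate block added *FZD2* (−0.30), *ZNRF3* (−0.10) and *AXIN1* (−0.076). The covariate turned *WNT4* (0.26), *TCF7* (0.048), *FZD6* (0.12), *FZD2* (−0.18) and *ROR1* (0.011). *WNT4* and *ROR1* also turned in DESeq2 (0.058 and 0.074) and with relative log expression size factors (0.045 and 0.061), *ROR1* with the block (0.0008), and both with 1 library left out (−0.067 to 0.083 and −0.065 to 0.083). Of these members, *AXIN1* and *ZNRF3* had passed the adjusted p as reported, and *FZD2* passed it with the opposite sign under the offsets (adjusted p = 0.0127). The 20 untested members with any reads had at most 20 counts in a library. Apart from *WNT6* and *WNT8B*, which were called in some alternatives as given above, differences among them were not detectable at this depth or not tested.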
